A study of Mus musculus with 33 samples.

Results

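The comparison described here sets GDNF-treated enteric neural crest cells (ENCCs) against whole gut. It uses 4 arrays of treated ENCCs (guts 2, 3, 8 and 9) and 8 arrays of whole gut, all from batch 2, out of the 33 arrays of the series. Guts at embryonic day 14.5 came from C57BL/6 mice that carried Wnt1-Cre-recombinase and LoxP/R26-YFP, in which the Wnt1 promoter drives Cre and so marks the neural crest and its descendants with YFP. The YFP-positive cells were sorted and grown on fibronectin in DMEM-F12 with N2, B27 and 20 ng/ml each of FGF and EGF. Cells of 1 gut filled 2 wells, and 1 of these wells also received GDNF at 50 ng/ml. The other well, untreated but with the same FGF and EGF, is shown beside the treated one to tell which differences were seen with GDNF only. Whole gut was the tissue from duodenum to anus of wild-type C57BL/6 embryos at embryonic day 14.5, neither sorted nor cultured. It holds the enteric neural crest too, among epithelium, muscle, mesenchyme, vessels and blood. Treated ENCCs and whole gut thus differ in the kinds of cells, in sorting, in culture, in growth factors and in genotype, and these cannot be told apart. In tissue RNA, fewer cells of a type and less RNA per cell cannot be told apart either. The labels do not state how long cells were cultured, or whether embryos were pooled or shared a litter, so p-values measure only the spread between these samples.

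As background, ENCCs are migratory descendants of the neural crest that colonise the gut and give rise to the neurons and glia of the enteric nervous system. GDNF, made by the gut mesenchyme, binds the co-receptor Gfra1, and the pair activates the receptor tyrosine kinase RET on ENCCs, which signals through adaptor proteins to the ERK and PI3K pathways. This signal is known for its part in the survival, proliferation, migration and neuronal differentiation of ENCCs, and mutations in RET are the most common known genetic cause of Hirschsprung disease, in which the distal gut lacks neurons.

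Each value is a score: the place of a probe set in the ranking of its own array, turned into the quantile of a standard normal distribution, after a scaling on ENCC arrays. ENCC scores therefore lie around 0 for every gene, and it is mostly the score of whole gut that shows how far the tissue lay from the ENCCs. A difference in score is not a fold change, a level cannot be compared between genes, and the array says nothing here about how bright a gene was. The median SD over probe sets was 0.892 among treated wells and 0.188 among whole guts, so the error of each difference comes mainly from the 4 wells. Pairs of treated arrays correlated at -0.150 to 0.156 over genes and pairs of whole guts at 0.902 to 0.952, because centring removed what the ENCC arrays share. Of the arrays used here, whole gut 4 most often held a far value: by Dixon's criterion it stood apart from the other whole guts for 1222 genes, or 6.72% of those tested, and without it 2924 genes were called higher and 2965 lower. The untreated well of gut 3 also stood apart, in that its RNA correlated at 0.143 with its own array of batch 1 and at 0.184 with that of another untreated gut. The other RNAs read in both batches correlated with their own array only at 0.277 to 0.362. For the treated well of gut 9 this was 0.308, against 0.297 with another treated gut. Counts and medians of gene lists in untreated wells are also given without the well of gut 3 where the text says so. One label of the whole guts gives their cell type as ENCCs, whereas their source is the gut itself, and the epithelial, muscle and vessel genes described here bear out the source.

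Treated ENCCs differed from whole gut over a large share of the genome. Of 18193 genes, 2916 were called higher in treated ENCCs (16.0%) and 2889 lower (15.9%), which makes 31.9% called in either direction, by limma with a Benjamini-Hochberg adjusted p under 0.05. Every treated array lay above every whole gut array for 17.8% of genes and below for 17.1%. The median difference over all genes was -0.0152, and that of its size was 0.673 over all genes and 1.6 over called genes. These shares and medians are the background against which each gene group is read. The smallest difference called was 0.485 in size.

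The genes with the largest differences upward were led by Npdc1, a gene of neural differentiation, and by Cd9, a tetraspanin of the cell membrane. Npdc1 scored 0.88, 0.85, 0.65 and 0.51 in the treated wells of guts 2, 3, 8 and 9, an order kept for every set of 4 values that follows, against -3.61 to -3.42 (median -3.53) in whole guts. The difference was 4.25 ± 0.20 (SE, adjusted p = 5.99e-07). For Cd9 the wells scored -0.054, 1.08, 0.85 and 1.94 against -3.21 to -3.0 (median -3.12), a difference of 4.07 ± 0.29 (SE, adjusted p = 9.42e-07). All wells lay far above all guts for both genes, and Cd9 was lowest in the well of gut 2. The carbonyl reductase Cbr3 (4.01), Cmtm5 (3.77), Tmcc2 (3.77), Vstm2a (3.75), Fam155a (3.74), the adaptor Shc4 (3.71), the mitochondrial folate enzyme Aldh1l2 (3.68) and the neuropeptide galanin, Gal (3.5), completed the 10 largest. All 10 were also called higher in untreated wells, at differences of 1.63 for Gal to 3.44 for Fam155a. Both comparisons use the same 8 whole guts.

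The largest differences downward were led by Guca2b and Apoc3. Guca2b, which encodes the intestinal hormone uroguanylin, scored -0.88, -1.2, 0.26 and 0.16 in treated wells against 2.46 to 3.92 (median 3.75) in whole guts, with a difference of -3.98 ± 0.95 (SE, adjusted p = 0.00576). Apoc3, an apolipoprotein made by enterocytes and liver, scored -1.42, -0.49, 0.40 and -0.72 against 2.92 to 3.32 (median 3.25), a difference of -3.78 ± 0.35 (SE, adjusted p = 4.27e-06). No well reached any gut for either gene. The lowest value of both among guts was that of whole gut 4, at 2.46 for Guca2b and 2.92 for Apoc3. The others were the class I histocompatibility gene H2-Q2 (-3.67), the brush-border protocadherin Cdhr2 (-3.61), the lysosomal protease cathepsin S, Ctss (-3.59), Gipc2 (-3.59), the syntrophin Sntg2 (-3.57), the apical export pump Abcc2 (-3.57), the inhibitory SMAD Smad6 (-3.55) and Fendrr, a long noncoding RNA beside Foxf1 (-3.54).

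The receptor complex for GDNF was higher in treated ENCCs, and none of the ligands named here was called higher. Ret scored 1.05, 0.58, 1.11 and -0.35 in treated wells and -2.06 to -1.97 (median -2.01) in whole guts, a difference of 2.61 ± 0.24 (SE, adjusted p = 4.97e-06). The GDNF co-receptor Gfra1 scored 0.28, -0.15, 1.11 and 0.36 against -2.0 to -1.79 (median -1.92), a difference of 2.32 ± 0.24 (SE, adjusted p = 1.26e-05). Every well lay above every gut for both, with gut 9 the lowest well for Ret and gut 3 the lowest for Gfra1. Ret was called higher in untreated wells as well, at 1.8 ± 0.29 (SE, adjusted p = 0.000696), as was Gfra1, at 1.79 ± 0.33 (SE, adjusted p = 0.00167). The co-receptors Gfra2 and Gfra3 were not called: Gfra2, which binds neurturin, differed by 0.41 ± 0.28 (SE, adjusted p = 0.315), and Gfra3, which binds artemin, by 1.4 ± 0.51 (SE, adjusted p = 0.0514). Gdnf itself, the ligand, differed by 1.06 ± 0.70 (SE, adjusted p = 0.306), with wells at 1.27, 1.41, -1.18 and -0.85 overlapping guts at -1.16 to -0.21 (median -0.97). Nrtn, the ligand neurturin, was lower, by -1.72 ± 0.36 (SE, adjusted p = 0.00219). Of 10 measured genes of the GDNF family and its receptors, 4 were called higher and 1 lower with a median of 1.11, and in untreated wells 5 and 0. The 4 include Ret and Gfra1 and also genes that are not named here.

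**Figure D1:**
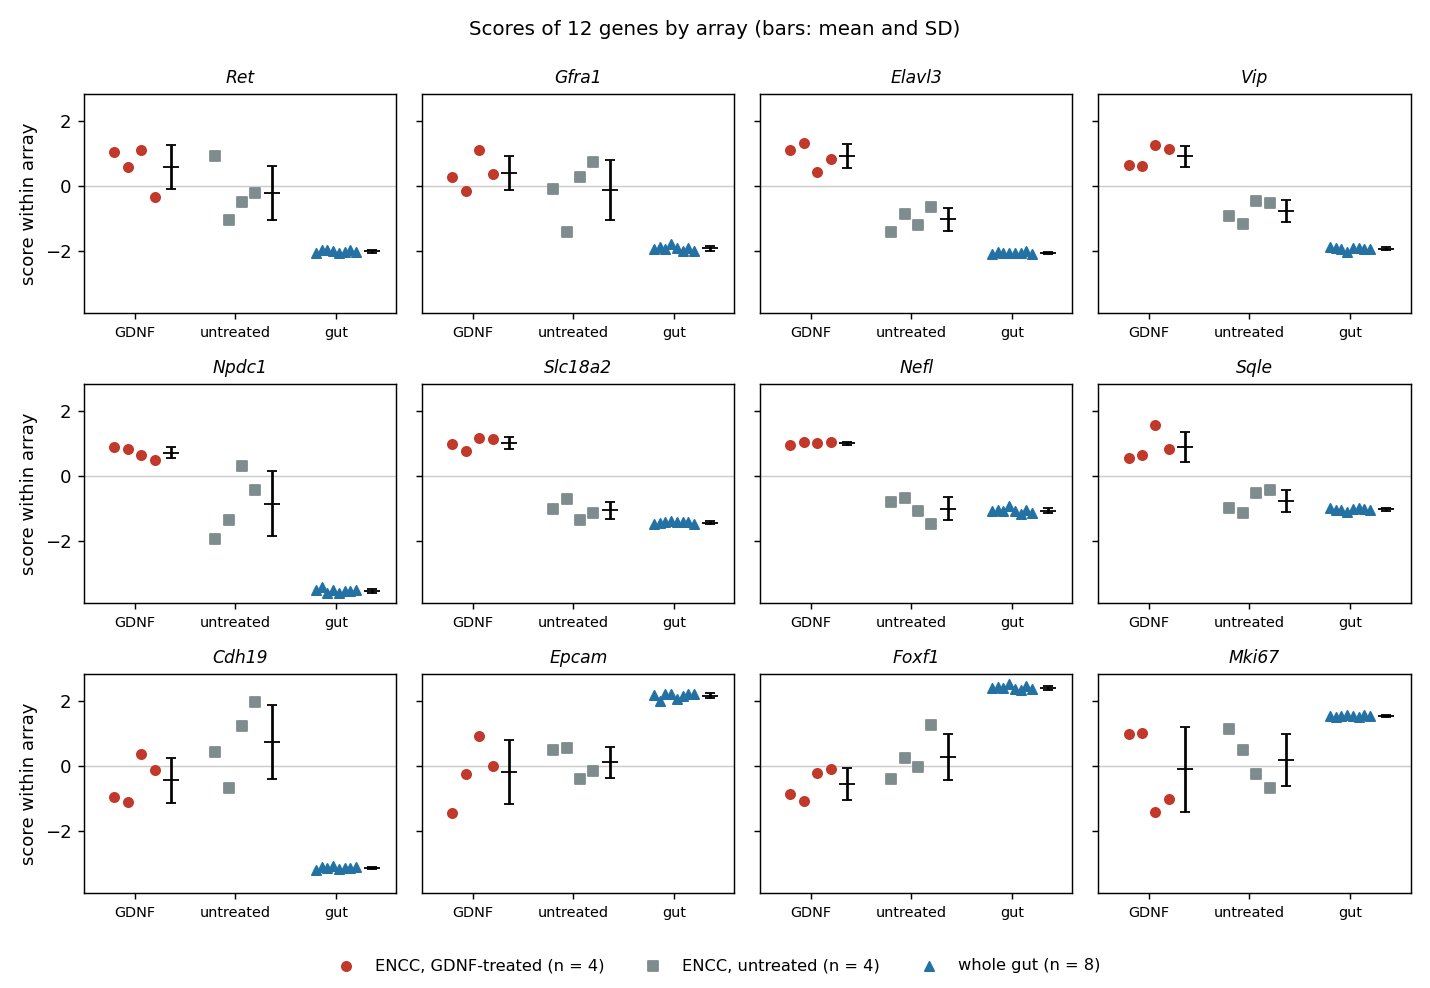
Score within the array (vertical axis, no unit) of 12 genes in 4 GDNF-treated ENCC wells, 4 untreated ENCC wells and 8 whole guts of batch 2; each point is 1 array, and the bar beside a group is its mean and SD. Ret, Gfra1, Npdc1 and Cdh19 were above whole gut with and without GDNF, Slc18a2, Nefl and Sqle were above whole gut in treated wells and near it in untreated wells, and the wells of guts 2 and 3 lay above those of guts 8 and 9 for Mki67.

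Elavl3 and Vip, taken with Ret and Gfra1 as markers of the treated cells, were both far above the tissue. Elavl3, an RNA-binding protein of young and mature neurons, scored 1.1, 1.31, 0.43 and 0.85 in treated wells against -2.1 to -1.99 (median -2.06), a difference of 2.98 ± 0.20 (SE, adjusted p = 9.42e-07). In untreated wells it scored -1.41, -0.84, -1.2 and -0.65, and the difference from whole gut was 1.03 ± 0.23 (SE, adjusted p = 0.00563). Vip, the vasoactive intestinal peptide of enteric motor neurons and interneurons, scored 0.66, 0.60, 1.25 and 1.15 against -2.02 to -1.87 (median -1.92), with a difference of 2.84 ± 0.20 (SE, adjusted p = 9.42e-07), and untreated wells at -0.93, -1.16, -0.46 and -0.51 differed by 1.16 ± 0.23 (SE, adjusted p = 0.00297). For both genes the order was therefore treated wells, untreated wells, whole guts, with no overlap between neighbours. In the 5 guts read only in batch 1, an independent set of wells, the treated minus the untreated well was 2.19 ± 0.16 (SD, n = 5, adjusted p = 0.0162) for Elavl3, higher in 5 of 5 guts, and 1.83 ± 0.45 (SD, n = 5, adjusted p = 0.0162) for Vip, higher in 5 of 5 guts. The 4 markers bear out the label of the treated wells as ENCCs.

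Downstream of RET, a part of the feedback genes of the ERK pathway was higher than in whole gut. Of 15 genes of ERK feedback and the ETV factors, 9 were called higher and 0 lower, with a median difference of 0.988. Spry2, a Sprouty inhibitor of receptor tyrosine kinase signalling, differed by 2.89 ± 0.41 (SE, adjusted p = 0.000129), with wells at -0.019, -0.56, 2.21 and 1.01 against -2.4 to -2.01 (median -2.25), so that the well of gut 8 stood highest. The ETS factor Etv5 differed by 1.71 ± 0.22 (SE, adjusted p = 6.78e-05), the immediate early gene Ier3 by 2.24 ± 0.20 (SE, adjusted p = 4.13e-06) and the ERK phosphatase Dusp6 by 0.76 ± 0.21 (SE, adjusted p = 0.013). In untreated wells 7 of the 15 were called higher, or 11 without the well of gut 3, with a median of 1.24 both ways. Both media held FGF and EGF, whose receptors also act through ERK. For Dusp6 the treated wells at 0.44, 0.39, 0.66 and 0.54 and 3 of the untreated wells, at 0.44, -2.43, 0.36 and 0.44, lay above all guts at -0.34 to -0.15 (median -0.26), and the untreated well of gut 3 alone lay below them. The call of Dusp6 was lost without the treated well of gut 8 (0.71, adjusted p = 0.0573) or gut 9 (0.75, adjusted p = 0.0506), and with the gut as a replicate block (adjusted p = 0.145). Among 16 RET adaptors and effectors, 4 were higher and 3 lower, the share lower being near the 15.9% over all genes. The adaptor Dok5 (1.82 ± 0.41 (SE, adjusted p = 0.00362)) and the PI3K subunit Pik3ca (1.74 ± 0.24 (SE, adjusted p = 9.87e-05)) stood on the higher side, and the adaptors Grb7 (-2.39 ± 0.40 (SE, adjusted p = 0.000485)) and Grb10 (-1.56 ± 0.28 (SE, adjusted p = 0.000772)) on the lower side.

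Of 8 genes of endothelin and neuregulin signalling, the other receptor systems of ENCCs, 2 were higher and 3 lower. Nrg1, the ligand neuregulin, scored 0.59, 0.74, 1.45 and 1.21 against -1.25 to -1.04 (median -1.17) in whole guts, a difference of 2.16 ± 0.22 (SE, adjusted p = 1.11e-05), while its untreated wells differed by 0.043 ± 0.27 (SE, adjusted p = 0.951). The receptor Erbb3 was higher by 1.11 ± 0.35 (SE, adjusted p = 0.0272) and its partner Erbb2 lower by -2.22 ± 0.42 (SE, adjusted p = 0.00109). Erbb3 was not called without the well of gut 2 (0.79, adjusted p = 0.163) or gut 3 (0.94, adjusted p = 0.132), which left 1 of the 8 genes higher. The endothelin receptor Ednrb was not called, at -0.56 ± 0.41 (SE, adjusted p = 0.369): wells of guts 2 and 3 scored 0.82 and 0.53 and those of guts 8 and 9 -1.30 and -2.01, on both sides of the guts at -0.038 to 0.25 (median 0.058). Its ligand Edn3, made by mesenchyme, was lower by -1.53 ± 0.30 (SE, adjusted p = 0.00161).

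Transcription factors of the ENCC lineage were mostly higher. Of 17 measured, 9 were called higher and 1 lower with a median of 1.01, and in untreated wells 8 and 0 with a median of 1.36. Hand2, needed for enteric neuron differentiation, scored 0.74, 1.84, 0.23 and -1.03 against -2.5 to -2.22 (median -2.34), a difference of 2.79 ± 0.37 (SE, adjusted p = 8.12e-05). Foxd3, a factor of neural crest progenitors, differed by 2.63 ± 0.46 (SE, adjusted p = 0.000611), Phox2a, a factor of autonomic neurons, by 2.39 ± 0.31 (SE, adjusted p = 6.64e-05), and Sox10, a factor of progenitors and glia, by 1.55 ± 0.21 (SE, adjusted p = 8.69e-05). All wells lay above all guts for these 4 genes. In untreated wells the differences were 1.84 for Hand2, 3.67 for Foxd3, 1.66 for Sox10 and 0.78 for Phox2a, the last with an adjusted p of 0.0639. Sox11, a factor of progenitors and immature neurons, was the 1 called lower, at -1.16 ± 0.33 (SE, adjusted p = 0.0157), and was not called without the well of gut 8 (-1.03, adjusted p = 0.08) or gut 9 (-0.88, adjusted p = 0.116).

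Genes of glia and Schwann cells were higher as a group. Of 16 measured, 13 were called higher and 0 lower with a median of 1.66, and in untreated wells 9 and 0 with a median of 1.25. Cdh19, a cadherin of Schwann cell precursors and enteric glia, scored -0.94, -1.1, 0.38 and -0.10 in treated wells against -3.18 to -3.07 (median -3.13), a difference of 2.69 ± 0.25 (SE, adjusted p = 4.17e-06), and its untreated wells differed by 3.88. S100b, a calcium-binding protein of glia, was higher by 1.44 ± 0.18 (SE, adjusted p = 4.7e-05). Fabp7, a fatty acid-binding protein of glial progenitors, was higher by 1.83 ± 0.22 (SE, adjusted p = 2.9e-05), but by 0.40 ± 0.26 (SE, adjusted p = 0.343) in untreated wells. For Gfap, the glial intermediate filament, the difference of 1.64 ± 0.41 (SE, adjusted p = 0.0074) came with wells at 0.24, 2.07, -0.20 and -0.26, and without that of gut 3, the highest, it was 1.11 (adjusted p = 0.0589).

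Neuronal genes made up the gene group with the largest median. Of 25 genes of the neuronal cytoskeleton and RNA-binding proteins, 24 were called higher and 0 lower, and all 25 had every treated well above every gut. The median difference was 2.5, against -0.0152 over all genes. Dpysl3, a collapsin response mediator, scored 1.28, 0.49, -0.24 and -0.16 against -3.14 to -3.0 (median -3.08), a difference of 3.42 ± 0.25 (SE, adjusted p = 1.11e-06). Uchl1, the neuronal ubiquitin hydrolase, scored 0.86, 1.14, 0.44 and 0.89 against -2.44 to -2.37 (median -2.41), a difference of 3.24 ± 0.18 (SE, adjusted p = 7.93e-07). Neuronal tubulin, Tubb3, differed by 2.85 ± 0.19 (SE, adjusted p = 9.42e-07), the growth cone protein Gap43 by 2.85 ± 0.19 (SE, adjusted p = 9.42e-07) and Elavl4 by 2.7 ± 0.19 (SE, adjusted p = 9.42e-07). The treated wells lay closer together for 4 of these genes than the median gene, with SDs of 0.29 for Uchl1, 0.28 for Tubb3, 0.32 for Gap43 and 0.25 for Elavl4, where the median SD over all genes was 0.709. The mean score over the 25 genes was 0.671, 0.538, 0.680 and 0.699 in the treated wells of guts 2, 3, 8 and 9, -0.719, -1.01, -0.436 and -0.122 in their untreated wells, and -1.77 to -1.66 in whole guts. In untreated wells 18 of the 25 were called higher, with a median of 1.02.

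Synaptic vesicle and secretory granule genes were higher too, 25 of 28 called with 0 lower and a median of 2.03. Syn1, a synapsin of synaptic vesicles, scored 0.27, 0.89, 1.37 and 1.43 against -2.45 to -2.12 (median -2.36), a difference of 3.31 ± 0.29 (SE, adjusted p = 3.51e-06). Snap25, a SNARE protein of vesicle fusion, scored -0.39, 0.84, 1.63 and 1.1 against -2.27 to -2.12 (median -2.18), a difference of 2.98 ± 0.28 (SE, adjusted p = 5.14e-06), and Syt1, the calcium sensor of release, differed by 1.64 ± 0.29 (SE, adjusted p = 0.000682). Scg2, the granule protein secretogranin, differed by 1.83 ± 0.24 (SE, adjusted p = 7.29e-05) and Chga, chromogranin A of neuroendocrine granules, by 2.56 ± 0.22 (SE, adjusted p = 2.71e-06). Chgb, chromogranin B, had all wells above all guts and narrowly missed the threshold at 1.78 ± 0.64 (SE, adjusted p = 0.0503). In untreated wells 12 of the 28 were called higher, with a median of 0.806, and 17 without the well of gut 3.

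Some enzymes and carriers of transmitters were higher. Of 21 measured, 6 were higher and 3 lower, the share lower being near the 15.9% over all genes. The vesicular monoamine transporter Slc18a2 scored 1.0, 0.78, 1.16 and 1.14 against -1.48 to -1.37 (median -1.42), a difference of 2.45 ± 0.18 (SE, adjusted p = 1.12e-06). Th, the first enzyme of catecholamine synthesis, differed by 2.28 ± 0.47 (SE, adjusted p = 0.00221), Dbh, which makes noradrenaline, by 1.99 ± 0.26 (SE, adjusted p = 7.56e-05) and Nos1, which makes nitric oxide in inhibitory motor neurons, by 2.05 ± 0.33 (SE, adjusted p = 0.000341). Ddc, which completes dopamine and serotonin synthesis and is also made by epithelium, was lower by -1.89 ± 0.35 (SE, adjusted p = 0.000886), and Slc6a4, the serotonin transporter, was lower by -2.18 ± 0.38 (SE, adjusted p = 0.000569). The cholinergic genes did not pass the test: Chat differed by 0.044 ± 0.39 (SE, adjusted p = 0.959) and the acetylcholine carrier Slc18a3 by -0.82 ± 0.55 (SE, adjusted p = 0.313), with wells overlapping guts for both.

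Of 17 genes in the neuropeptide list, which also holds the calcium-binding protein gene Scgn, 9 were called higher and 1 lower, with a median of 1.18. Gal scored -0.042, 0.84, 1.6 and 1.45 against -2.59 to -2.5 (median -2.54), a difference of 3.5 ± 0.25 (SE, adjusted p = 9.42e-07). Cartpt, the peptide precursor CART of enteric neurons, scored 0.24, 0.86, 1.22 and 1.52 against -1.11 to -1.03 (median -1.09), a difference of 2.05 ± 0.22 (SE, adjusted p = 1.24e-05). Npy differed by 1.65 ± 0.35 (SE, adjusted p = 0.00249) and by 2.98 ± 0.26 (SE, adjusted p = 1.56e-05) in untreated wells, and the substance P precursor Tac1 by 0.91 ± 0.45 (SE, adjusted p = 0.15), with overlap. Cck, a peptide of both neurons and enteroendocrine cells, was the 1 called lower, by -1.68 ± 0.47 (SE, adjusted p = 0.0135), and was not called without the well of gut 2, 8 or 9 (-1.51, -1.67 and -1.41, adjusted p of 0.0667, 0.0512 and 0.0912).

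The promoters of Cartpt and Scg2 are shown because both genes were higher and both hold a cyclic AMP response element, the palindrome TGACGTCA to which CREB binds, in capitals here. The 150 bases before each RefSeq start site, 5′ to 3′ on the strand of the gene, are from assembly GRCm38.p6. Counted from the start site, the match begins at -112 in Cartpt and at -68 in Scg2.
Cartpt: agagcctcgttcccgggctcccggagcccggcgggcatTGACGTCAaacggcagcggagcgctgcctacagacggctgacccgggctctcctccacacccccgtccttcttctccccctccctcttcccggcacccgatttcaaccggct
Scg2: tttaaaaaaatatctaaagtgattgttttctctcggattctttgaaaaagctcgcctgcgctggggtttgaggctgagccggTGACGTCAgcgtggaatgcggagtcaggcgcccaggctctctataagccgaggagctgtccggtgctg
The Cartpt stretch lies at chr13:99900684-99900833 on the minus strand and the Scg2 stretch at chr1:79440027-79440176 on the minus strand. Searching the 250 bases before the start on both strands, the element was found in 2 of 14 promoters of neuropeptide genes (14.3%), in Cartpt and Sst, and in 3 of 23 of synaptic genes (13%), in Scg2, Chgb and Syn1. It was found in 361 of 14452 promoters of all measured genes (2.5%) and in 2 of 20 of gut epithelium (10%), a group that was lower. A match is a description of the sequence.

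Ion channels and receptors of excitable cells were higher in 16 of 23 cases and lower in 1. Kcnq3, a potassium channel subunit that limits firing, scored -0.34, -0.50, 0.97 and -0.35 against -3.44 to -3.33 (median -3.37), a difference of 3.33 ± 0.24 (SE, adjusted p = 1.07e-06). The glutamate receptor subunit Gria2 differed by 2.78 ± 0.26 (SE, adjusted p = 4.63e-06) and the nicotinic receptor subunits Chrnb4 by 2.29 ± 0.30 (SE, adjusted p = 7.39e-05) and Chrna3 by 2.03 ± 0.21 (SE, adjusted p = 1.03e-05). Ano1, the chloride channel of interstitial cells of Cajal, was the 1 lower, at -1.02 ± 0.32 (SE, adjusted p = 0.0264), and was not called without the well of gut 3, 8 or 9 (-1.11, -0.85 and -0.70, adjusted p of 0.0553, 0.131 and 0.176). Among 32 genes of axon guidance and adhesion, 14 were higher and 5 lower, the share lower being near the 15.9% over all genes. The adhesion proteins L1cam (2.6 ± 0.27 (SE, adjusted p = 1.01e-05)), Opcml (2.86 ± 0.24 (SE, adjusted p = 2.65e-06)) and Negr1 (2.69 ± 0.18 (SE, adjusted p = 9.42e-07)) and the netrin receptor Dcc (2.48 ± 0.29 (SE, adjusted p = 2.53e-05)) were higher, and the semaphorin co-receptor Plxna2 (-1.59 ± 0.19 (SE, adjusted p = 3.22e-05)) lower. Without the well of gut 3 or gut 9, 2 or 3 of the 32 were lower.

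Of 24 genes linked to Hirschsprung disease, 9 were higher and 8 lower in treated wells than in whole gut. The higher ones were the receptor genes Ret and Gfra1, the factor Sox10, the adhesion gene L1cam, the neuregulins Nrg1 and Nrg3, the semaphorin Sema3c, the sterol reductase Dhcr7 and Bbs4. The lower ones were the ligands Nrtn, Edn3 and Ihh, the hedgehog factors Gli1 and Gli2 and the DNA methyltransferase Dnmt3b (-2.31 ± 0.33 (SE, adjusted p = 0.000146)), with Gli3 and Nup98. The endothelin receptor gene Ednrb, also in the list, was not called.

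Genes of the other tissues of the gut were lower, with epithelium the farthest. Of 33 epithelial genes, 0 were called higher and 30 lower with a median of -1.99, and of 36 genes of enterocytes and secretory cells 1 was higher and 30 lower with a median of -2.51. Epcam, an adhesion protein of epithelia, scored -1.43, -0.24, 0.94 and 0.0075 against 2.01 to 2.24 (median 2.21), a difference of -2.35 ± 0.33 (SE, adjusted p = 0.000117). The keratin Krt8 differed by -3.15 ± 0.19 (SE, adjusted p = 7.93e-07), E-cadherin, Cdh1, by -2.85 ± 0.26 (SE, adjusted p = 3.69e-06) and the epithelial factors Hnf4a by -2.46 ± 0.23 (SE, adjusted p = 4.44e-06) and Cdx2 by -2.23 ± 0.24 (SE, adjusted p = 1.74e-05). Fabp1, a fatty acid carrier of enterocytes, scored 0.20, 1.41, -0.96 and -0.13 against 3.07 to 3.15 (median 3.12), a difference of -2.99 ± 0.29 (SE, adjusted p = 7.12e-06), and the microvillus protein Vil1 differed by -2.12 ± 0.20 (SE, adjusted p = 6.11e-06). All wells lay below all guts for these genes. Since ENCC scores are centred, the data do not show whether a well held any epithelial RNA at all. The 1 gene of the enterocyte list called higher was Chga, which marks enteroendocrine cells and is a granule gene of neurons too. In untreated wells 28 of the 33 and 29 of the 36 were lower, with medians of -2.17 and -2.26. In whole gut 4 the mean score over the 36 genes was 1.99, against 2.27 to 2.31 in the other whole guts.

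Alpi, intestinal alkaline phosphatase, was chosen for display after its values were seen: it scored -0.73, -1.01, -0.79 and 1.47 against 2.57 to 2.85 (median 2.84), a difference of -3.07 ± 0.37 (SE, adjusted p = 3.92e-05). Its promoter is shown as that of an enterocyte gene that was lower, with a match to CAAAGTCCA, a form of the site bound by the factor HNF4, in capitals. The 150 bases before the start are from RefSeq, assembly GRCm38.p6, at chr1:87101607-87101756 on the minus strand, and the match begins at -19 from the start.
Alpi: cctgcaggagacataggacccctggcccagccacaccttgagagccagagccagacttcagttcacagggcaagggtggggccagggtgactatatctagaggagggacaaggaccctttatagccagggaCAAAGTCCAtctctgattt
On both strands, this site was found in 2 of 31 promoters of the enterocyte list (6.45%), in Alpi and Muc13, in 0 of 20 of the epithelial list and in 74 of 14452 of all measured genes (0.512%). Hnf4a itself was lower, as given in the paragraph on epithelium.

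Muscle, mesenchyme and mesothelium were lower as well. Of 17 smooth muscle genes 12 were lower and 0 higher, with a median of -1.34. Myh11, smooth muscle myosin, scored -0.073, -0.42, 0.69 and -0.40 against 2.1 to 2.36 (median 2.23), a difference of -2.27 ± 0.25 (SE, adjusted p = 1.96e-05), the myosin kinase Mylk differed by -3.0 ± 0.25 (SE, adjusted p = 2.66e-06) and smoothelin, Smtn, by -3.17 ± 0.28 (SE, adjusted p = 3.17e-06). Actg2, smooth muscle actin, was lower by -1.67 ± 0.35 (SE, adjusted p = 0.00225), but the well of gut 3 at 2.23 lay above all guts while the others scored -0.45 to 0.27. Desmin, Des, was not called, at -1.14 ± 0.50 (SE, adjusted p = 0.107). Of 23 mesenchymal genes 15 were lower and 0 higher, with a median of -1.62. Foxf1, a forkhead factor of gut mesenchyme, scored -0.87, -1.07, -0.21 and -0.079 against 2.33 to 2.54 (median 2.41), a difference of -2.97 ± 0.24 (SE, adjusted p = 1.82e-06), the factor Hlx differed by -2.84 ± 0.40 (SE, adjusted p = 0.000125) and the growth factor receptor Pdgfra by -2.19 ± 0.22 (SE, adjusted p = 7.9e-06). The mesenchymal markers Barx1 (0.16 ± 0.75 (SE, adjusted p = 0.917)) and Col1a1 (-0.92 ± 0.36 (SE, adjusted p = 0.0673)) were not called, with wells overlapping guts for both. In untreated wells 9 of the 23 were lower and 1 higher, or 2 higher without the well of gut 3, with a median of -0.674. Of 12 mesothelial genes 10 were lower, Krt7 by -3.24 ± 0.23 (SE, adjusted p = 1.01e-06) and Wt1 by -2.09 ± 0.43 (SE, adjusted p = 0.00203), and of 7 genes of interstitial cells of Cajal 4 were lower, Kit by -1.24 ± 0.26 (SE, adjusted p = 0.00228).

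Vessels and blood followed. Of 23 endothelial genes 20 were lower and 0 higher with a median of -1.77, and the same counts held in untreated wells with a median of -1.8. Emcn, a surface sialoglycoprotein of capillaries and veins, scored 0.80, -1.17, -1.85 and 0.64 against 2.87 to 3.07 (median 2.93), a difference of -3.34 ± 0.38 (SE, adjusted p = 2.23e-05), the receptor subunit Ramp2 differed by -2.54 ± 0.37 (SE, adjusted p = 0.000172) and the VEGF receptor Kdr by -2.17 ± 0.42 (SE, adjusted p = 0.00129). The wells of gut 8, at -1.85 for Emcn, -2.36 for Ramp2 and -2.43 for Kdr, were the lowest each time. Of 19 genes of macrophages and other leukocytes 12 were lower: the complement gene C1qb by -2.87 ± 0.27 (SE, adjusted p = 5.36e-06), the macrophage receptor Csf1r by -2.36 ± 0.24 (SE, adjusted p = 9.93e-06) and the mannose receptor Mrc1 by -2.59 ± 0.27 (SE, adjusted p = 1.04e-05). The actin regulator Coro1a was the 1 higher, at 0.91 ± 0.26 (SE, adjusted p = 0.0147), and was not called without the well of gut 3, 8 or 9 (0.74, 0.86 and 0.80, adjusted p of 0.0893, 0.0603 and 0.0784). Of 14 erythroid genes 5 were lower, among them the embryonic globin Hbb-y by -2.9 ± 0.40 (SE, adjusted p = 9.74e-05), and 3 were lower without the well of gut 8 or without that of gut 9.

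**Figure D2:**
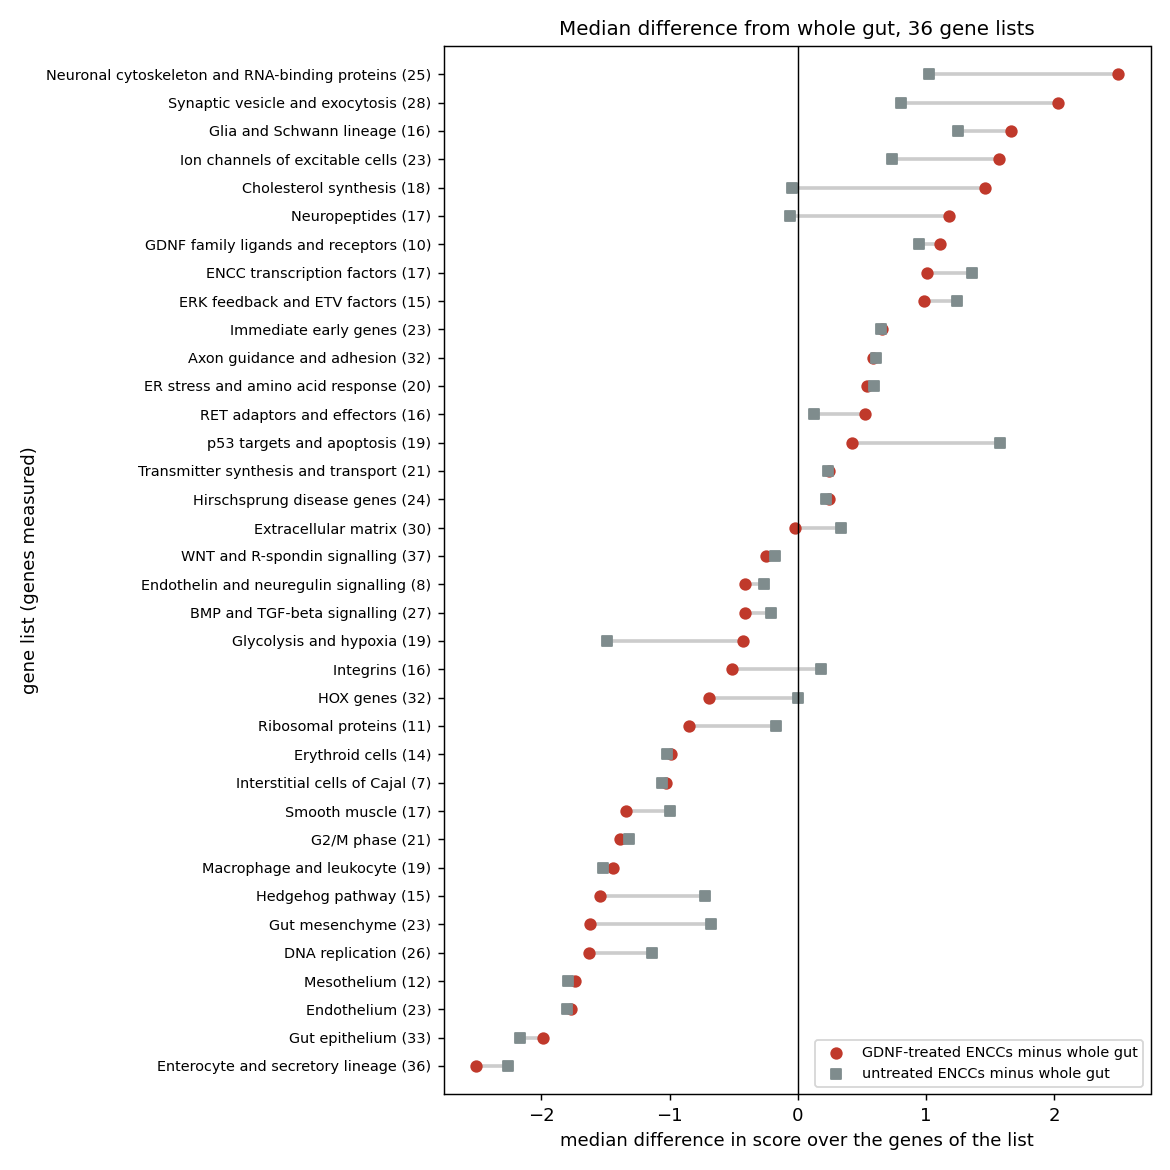
Median difference in score from whole gut (horizontal axis, no unit) over the measured genes of 36 gene lists, for 4 GDNF-treated wells (circles) and 4 untreated wells (squares) against the same 8 whole guts. Neuronal cytoskeleton genes lay highest at 2.5 and enterocyte genes lowest at -2.51 in treated wells; for cholesterol synthesis the medians were 1.46 with GDNF and -0.0488 without.

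Hedgehog signalling passes between the layers of the gut, from epithelium to mesenchyme, and its genes were lower in treated ENCCs. Of 15 hedgehog genes 13 were lower and 0 higher with a median of -1.54, and 7 were lower in untreated wells with a median of -0.727. The ligands Shh, made by epithelium, and Ihh differed by -1.91 ± 0.32 (SE, adjusted p = 0.000525) and -1.77 ± 0.26 (SE, adjusted p = 0.000175), the transcription factors Gli1 and Gli2 by -1.62 ± 0.32 (SE, adjusted p = 0.00146) and -2.11 ± 0.36 (SE, adjusted p = 0.000545) and the inhibitor Hhip by -1.94 ± 0.24 (SE, adjusted p = 4.52e-05). Of 27 genes of BMP and TGF-beta signalling 9 were lower and 3 higher, the share higher being below the 16.0% over all genes. Bmp4, a ligand made by mesenchyme, scored -1.21, -1.52, -0.26 and -0.16 against 1.62 to 1.71 (median 1.68), a difference of -2.46 ± 0.24 (SE, adjusted p = 7.12e-06), the antagonist Grem1 differed by -2.72 ± 0.28 (SE, adjusted p = 1.01e-05), the target Id1 by -1.62 ± 0.33 (SE, adjusted p = 0.002), and the ligand Tgfb2 was higher by 1.39 ± 0.31 (SE, adjusted p = 0.00367). Without the well of gut 8 or gut 9, 1 of the 27 was higher. Of 37 WNT and R-spondin genes 10 were lower and 4 higher, the share higher being below the 16.0% over all genes. The receptors Fzd2 (-1.86 ± 0.26 (SE, adjusted p = 0.000119)) and Fzd3 (1.68 ± 0.27 (SE, adjusted p = 0.000337)) went opposite ways, and the WNT target Axin2 was not called (-0.63 ± 0.29 (SE, adjusted p = 0.123)). The list median of -0.245 was above 0 without the well of gut 8 or 9.

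Matrix and integrin genes were called in both directions. Of 30 matrix genes 7 were higher and 10 lower, with a median of -0.0233 that was above 0 on ranks within the array and without the well of gut 2, 3 or 9, and 6 were lower without that of gut 2 or 3. Periostin, Postn, was higher by 2.28 ± 0.39 (SE, adjusted p = 0.000538), with wells at -1.94, -0.63, 1.36 and 0.35, and the basement membrane collagen chain Col4a2 by 1.89 ± 0.25 (SE, adjusted p = 6.78e-05). The collagen chain Col6a3 was lower by -2.3 ± 0.20 (SE, adjusted p = 3.25e-06) and the nidogen Nid2 by -2.49 ± 0.47 (SE, adjusted p = 0.00105). Tnc, the matrix protein tenascin C, was not called in treated wells, at 0.49 ± 0.25 (SE, adjusted p = 0.162), and was higher in untreated wells, at 2.04 ± 0.29 (SE, adjusted p = 0.000246). In untreated wells 8 of the 30 matrix genes were higher and 2 lower, with a median of 0.337. Without the untreated well of gut 3 these were 12 and 2, with a median of 0.938. Among 16 integrins 4 were higher and 3 lower in treated wells, the share lower being near the 15.9% over all genes. Itga6, a laminin receptor chain, scored 0.47, 0.79, 1.32 and 0.97 against -1.24 to -1.09 (median -1.21), a difference of 2.08 ± 0.21 (SE, adjusted p = 8.39e-06), and Itga4, a fibronectin receptor chain of the neural crest, differed by 1.68 ± 0.28 (SE, adjusted p = 0.000431). Itga9 was lower by -1.7 ± 0.27 (SE, adjusted p = 0.000343).

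Cell cycle genes were lower than in whole gut, and they also divided the treated wells. Of 26 DNA replication genes 20 were lower and 0 higher with a median of -1.63, and of 21 genes of G2 and M phase 19 and 0 with a median of -1.39. In untreated wells 16 and 17 were lower, with medians of -1.14 and -1.32. Mcm2, a subunit of the replicative helicase, scored 0.29, -0.73, -0.77 and -0.56 against 2.01 to 2.32 (median 2.07), a difference of -2.54 ± 0.28 (SE, adjusted p = 1.89e-05). Mki67, which marks cycling cells, scored 1.00, 1.04, -1.4 and -1.02 against 1.52 to 1.58 (median 1.54), a difference of -1.64 ± 0.36 (SE, adjusted p = 0.00312), and the polymerase clamp Pcna scored 1.17, 0.70, -2.41 and -0.80 against 1.67 to 1.84 (median 1.75), a difference of -2.08 ± 0.44 (SE, adjusted p = 0.00257). The wells of guts 2 and 3 scored above those of guts 8 and 9 for Mki67 and Pcna, but all 4 stayed below every gut. Without the well of gut 8 or without that of gut 9, 12 of the 21 genes of G2 and M phase were lower. The mean score over the 21 genes of G2 and M phase was 0.657 and 0.983 in the treated wells of guts 2 and 3, -1.05 and -0.632 in those of guts 8 and 9, and 1.31 to 1.39 in whole guts. In the untreated wells of guts 2, 3, 8 and 9 it was 0.835, 0.343, -0.0616 and -0.727, so for this list wells of 1 gut lay on the same side of 0 with and without GDNF. Over the 26 DNA replication genes the wells of gut 8 lay on opposite sides, at -0.892 with and 0.366 without GDNF.

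**Figure D3:**
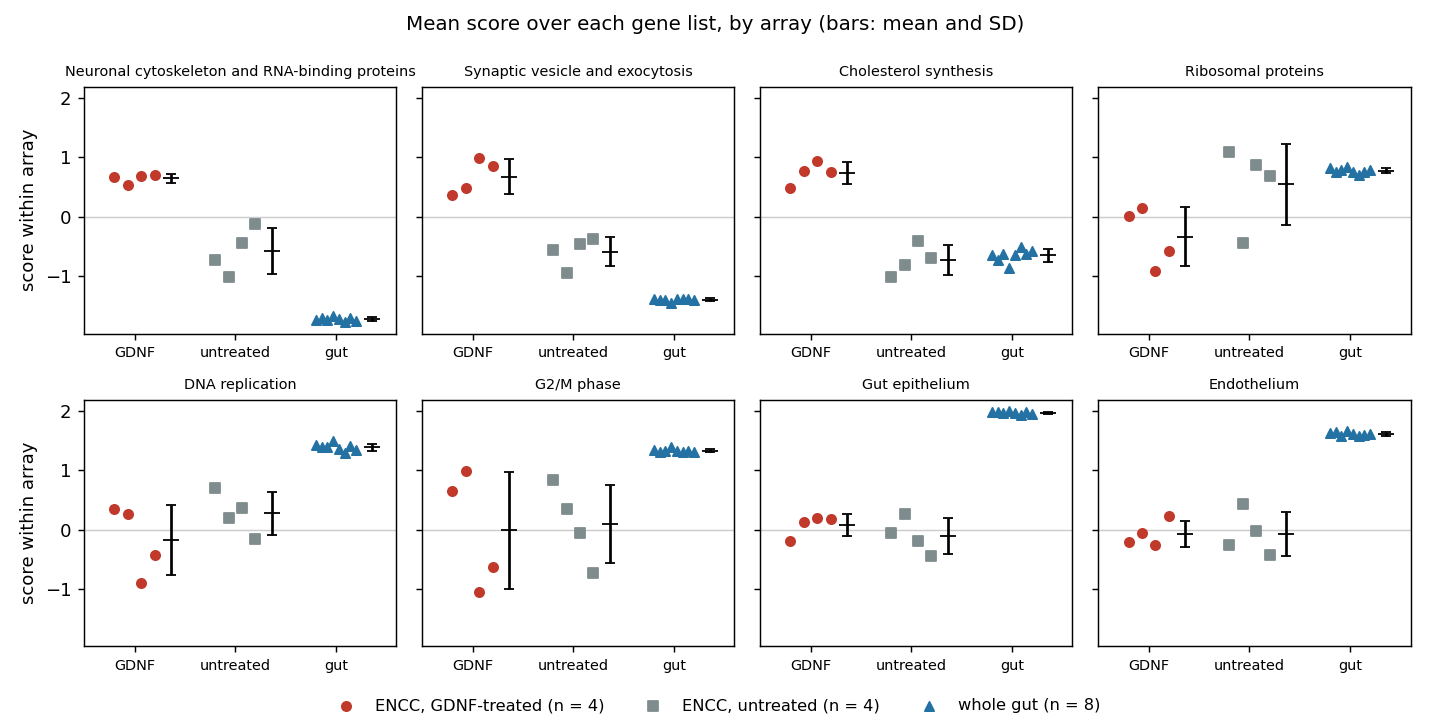
Mean score over the measured genes of 8 lists (vertical axis, no unit) in each array of batch 2; each point is 1 array, and bars are the mean and SD of 4 treated wells, 4 untreated wells and 8 whole guts. Treated wells lay above untreated wells and guts for neuronal cytoskeleton, synaptic and cholesterol genes, untreated wells overlapped whole guts for cholesterol genes, and treated wells spread widest for G2 and M phase, from -1.05 to 0.983.

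The HOX genes, which encode position along the body axis, were called in both directions. Of 32 measured, 5 were higher and 9 lower, and the share higher was near that over all genes. Those higher were Hoxa5, Hoxb2, Hoxb4, Hoxb5 and Hoxd3, with Hoxb5 at 2.43 ± 0.30 (SE, adjusted p = 3.92e-05) and Hoxb4 at 2.24 ± 0.43 (SE, adjusted p = 0.00137). The lower genes were Hoxa7, Hoxa9, Hoxc5, Hoxc6, Hoxc8, Hoxc10, Hoxd8, Hoxd9 and Hoxd10, led by Hoxc8 at -2.74 ± 0.32 (SE, adjusted p = 2.45e-05) and Hoxd10 at -2.14 ± 0.44 (SE, adjusted p = 0.00206), and 5 were lower without the well of gut 3. Hoxb5, which acts in ENCCs upstream of Ret, scored 0.78, -0.14, 1.14 and 1.58 against -1.71 to -1.46 (median -1.59). Many of these names were singled out after their values were seen.

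Some genes differed from whole gut with GDNF only. They were defined by 3 conditions: a call in treated wells, no call in untreated wells of the same batch, and a call in the same direction for treated minus untreated wells in the 5 guts of batch 1 that gave no array to batch 2. The first condition and the second share their 8 whole guts, so the third, from other wells, carries the difference itself. It called 1725 genes higher (9.48%) and 742 lower (4.08%). Untreated wells were called higher than whole gut for 1640 genes (9.01%) and lower for 2121 (11.7%). All 3 conditions held for 800 genes higher (4.40%) and 200 lower (1.10%). Over the 800, the median difference from whole gut was 1.84 with GDNF and 0.386 without, and over the 200 it was -1.56 and -0.389. The genes were picked by calls in these same arrays, so a wider difference with GDNF was fixed in advance. With clone and predicted names left out of the count, 662 higher and 123 lower genes also had the treated well on that side of the untreated well in all 4 guts of batch 2. The same selection favours this too. A test of GDNF in those 4 guts alone called 0 genes in limma, with 3516 at an unadjusted p under 0.05. The third condition was fragile: leaving out gut 4, 5, 6 or 7 left 0 calls and leaving out gut 1 left 688 and 212 genes.

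Among genes of this kind with the treated well on the same side in all 4 guts, the largest upward were Amer3, Olfm2, Khdrbs2, Gripap1, Rprm, Dbndd1, Opcml and Stk32a. Olfm2, a secreted olfactomedin protein, scored 0.71, 0.99, 1.12 and 1.09 with GDNF, -1.42, -0.44, -1.88 and -1.22 without and -2.24 to -1.95 (median -2.08) in whole guts, and the difference from gut was 3.06 ± 0.24 (SE, adjusted p = 1.84e-06) with and 0.84 ± 0.31 (SE, adjusted p = 0.0733) without GDNF. Opcml, an IgLON adhesion protein of neurons, scored 0.72, 1.08, 1.34 and 0.51 with and -1.99, -0.59, -0.98 and -1.47 without GDNF, against -2.04 to -1.79 (median -1.98), and its untreated difference was 0.69 ± 0.30 (SE, adjusted p = 0.131). In the 5 guts of batch 1 the treated minus the untreated well was 1.8 ± 0.83 (SD, n = 5, adjusted p = 0.0191) for Olfm2 and 2.47 ± 0.61 (SD, n = 5, adjusted p = 0.0162) for Opcml, higher in 5 of 5 guts for both. The differences were 3.15 for Amer3, which belongs to the family that recruits APC to membranes, 2.92 for the RNA-binding protein Khdrbs2 and 2.9 for Rprm, a cell cycle inhibitor. They were 2.91 for Gripap1, 2.89 for Dbndd1 and 2.85 for the kinase Stk32a.

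The largest downward with GDNF only were P4hb, Fcgrt, Plin3, Ccdc8, Camk1d, Net1, Ap3b1 and Sytl2. P4hb, protein disulfide isomerase of the endoplasmic reticulum, scored -0.41, 0.37, -1.8 and -1.17 with GDNF, 2.93, 0.56, 0.77 and 0.73 without and 1.79 to 2.28 (median 2.22) in whole guts, and the difference was -2.92 ± 0.42 (SE, adjusted p = 0.000143) with and -0.91 ± 0.47 (SE, adjusted p = 0.21) without GDNF. Net1, an exchange factor for RhoA, scored -0.70, -1.59, -0.75 and -0.40 with GDNF, 0.94, 0.34, 1.18 and 1.27 without and 1.37 to 1.52 (median 1.49) in whole guts, and the difference was -2.34 ± 0.22 (SE, adjusted p = 6e-06) with and -0.55 ± 0.24 (SE, adjusted p = 0.143) without. In the 5 guts of batch 1 the difference between wells was -1.19 ± 0.42 (SD, n = 5, adjusted p = 0.0314) for P4hb and -1.29 ± 0.63 (SD, n = 5, adjusted p = 0.0344) for Net1, lower in 5 of 5 guts for both. The differences from gut were -2.61 for the neonatal Fc receptor Fcgrt, -2.49 for the lipid droplet protein Plin3, -2.47 for Ccdc8, -2.39 for the kinase Camk1d, -2.31 for the vesicle adaptor subunit Ap3b1 and -2.3 for Sytl2. In the case of Sytl2 the well of gut 3, at -3.19, lay far below the others, at -0.19 to 0.26, and without it the difference was -1.48.

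**Figure D4:**
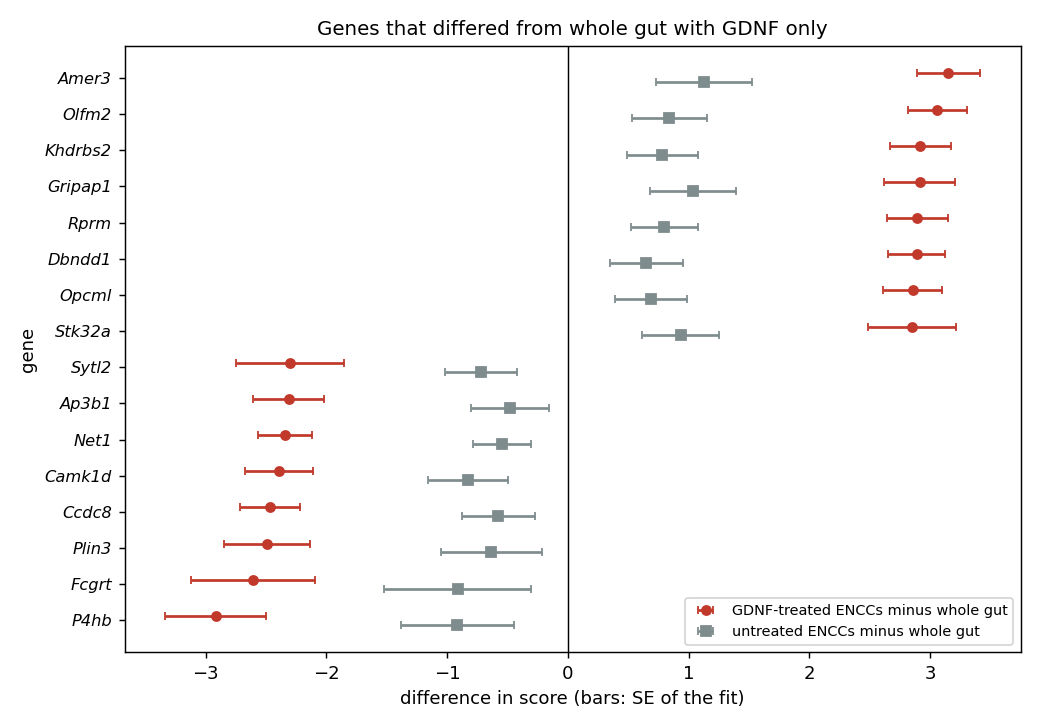
Difference in score from whole gut (horizontal axis, no unit; bars are the SE of the fit) of the 8 largest genes in each direction that differed with GDNF only, for 4 treated wells (circles) and 4 untreated wells (squares) against the same 8 whole guts. Treated differences ran from 3.15 for Amer3 to -2.92 for P4hb, and untreated differences lay between 1.13 and -0.91.

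Cholesterol synthesis was the gene group with the largest share of such genes. Of 18 enzymes and regulators, 13 were called higher than whole gut with GDNF and 0 lower, with a median of 1.46. In untreated wells 1 was called higher, with a median of -0.0488, or -0.0966 without the well of gut 3. The pathway builds cholesterol from acetyl-CoA by way of mevalonate, squalene and lanosterol, and 11 of the 18, or 61.1%, differed with GDNF only, against 4.40% of all genes: Hmgcs1, Mvk, Pmvk, Mvd, Sqle, Lss, Cyp51, Tm7sf2, Nsdhl, Sc5d and Dhcr7. Hmgcs1, which makes the precursor of mevalonate, scored 1.31, 1.71, 0.43 and -0.012 with GDNF, -0.37, -0.60, -1.11 and -1.1 without and -1.25 to -1.0 (median -1.1) in whole guts. Its difference from gut was 1.96 ± 0.31 (SE, adjusted p = 0.00032) with and 0.30 ± 0.29 (SE, adjusted p = 0.571) without GDNF. Sqle, which oxidises squalene, scored 0.55, 0.64, 1.58 and 0.83 with GDNF, -0.97, -1.15, -0.52 and -0.42 without and -1.09 to -0.97 (median -1.02) in whole guts, and the difference was 1.92 ± 0.21 (SE, adjusted p = 1.85e-05) with and 0.26 ± 0.23 (SE, adjusted p = 0.53) without. Untreated wells were not called apart from the tissue for either gene, and all treated wells lay above all untreated wells and all guts. In the 5 guts of batch 1 the difference between wells was 1.34 ± 0.28 (SD, n = 5, adjusted p = 0.0195) for Hmgcs1 and 1.4 ± 0.22 (SD, n = 5, adjusted p = 0.0174) for Sqle, higher in 5 of 5 guts each. Tm7sf2, a sterol reductase, had the largest difference from gut, at 2.06 ± 0.26 (SE, adjusted p = 4.93e-05). The count stayed at 11 without the untreated well of gut 3 and was 10 when GDNF was tested by the fit of all 16 arrays with the gut as a replicate block. It was 0 without gut 4, 5, 6 or 7 of batch 1.

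The promoter of Hmgcs1 is shown because it holds a sterol regulatory element, the site bound by SREBP factors, which raise cholesterol synthesis. The 150 bases before the RefSeq start, assembly GRCm38.p6, lie at chr13:119690201-119690350 on the plus strand, with the match to TCACNCCAC in capitals, beginning at -137 from the start.
Hmgcs1: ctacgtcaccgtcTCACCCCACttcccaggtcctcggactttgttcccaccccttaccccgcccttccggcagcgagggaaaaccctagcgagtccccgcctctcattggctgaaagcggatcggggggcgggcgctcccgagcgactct
Within 250 bases before the start and on both strands, the element was found in 1 of 15 promoters of the list (6.67%) and in 183 of 14452 of all measured genes (1.27%). It was also found in 1 of 14 promoters of the cytoskeletal list (7.14%) and 1 of 23 of the synaptic list (4.35%). The absence of a match says only that these letters are not in the window.

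Neuronal lists also held genes of this kind. The class, here all higher, took in 35.7% of synaptic, 29.4% of neuropeptide and 16.0% of cytoskeletal genes, against 4.40% of all genes. Of the 28 synaptic genes 10 differed with GDNF only: Sv2a, Stx1a, Vamp2, Rab3a, Rab3b, Cplx1, Cplx2, Unc13a, Scg3 and Scg5, which act in the docking, priming and fusion of vesicles or in granules. Of the 17 genes of the neuropeptide list 5 did (Cartpt, Pdyn, Grp, Adcyap1 and Scgn), and of the 25 of the cytoskeletal list 4 (Stmn3, Nefl, Nsg1 and Tagln3). Scgn, a calcium-binding protein, is not itself a peptide, and Nsg1, an endosomal protein of neurons, is not part of the cytoskeleton. Nefl, the light neurofilament chain, scored 0.95, 1.04, 1.02 and 1.05 with GDNF, -0.79, -0.68, -1.06 and -1.48 without and -1.15 to -0.90 (median -1.08) in whole guts, and the difference was 2.08 ± 0.22 (SE, adjusted p = 1.22e-05) with and 0.065 ± 0.27 (SE, adjusted p = 0.924) without. Slc18a2 scored -1.02, -0.71, -1.35 and -1.13 without GDNF, a difference of 0.37 ± 0.22 (SE, adjusted p = 0.29), and its difference between wells in the 5 guts of batch 1 was 1.82 ± 0.16 (SD, n = 5, adjusted p = 0.0162). Nrg1 scored -1.46, -0.76, -1.64 and -0.60 without GDNF, and its difference between wells was 1.77 ± 0.42 (SD, n = 5, adjusted p = 0.0162). All 4 treated wells of these 3 genes lay above all untreated wells and all guts. These counts followed the calls in untreated wells. Without the untreated well of gut 3, the class held 6 synaptic and 2 cytoskeletal genes, and without that of gut 2, 8 or 9 it held 12, 12 or 13 synaptic and 10, 10 or 11 cytoskeletal genes. With 1 spread for both groups it held 6 and 1, and 16 and 13 where, in place of no call, the untreated difference had to be well under the treated one. Without gut 4, 5, 6 or 7 of batch 1 it held 0 of either list and of the neuropeptides. From other lists, Phox2a, Fabp7, Hoxb5, Hoxb4, Itga6, Hk1 and the nuclear receptor Nr4a1 were in the class as well. It held 5.88% of ENCC transcription factors, 6.25% of glial genes, 6.25% of integrins and 5.26% of glycolysis genes. Of HOX genes it held 9.38% and of immediate early genes 8.70%. Over all genes the share was 4.40% higher and 1.10% lower, so these are single genes from lists near or not far above it.

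Ribosomal, p53 and glycolysis genes are given because some of them also differed between wells with and without GDNF, and their part in the results was not tested. In the 5 guts of batch 1, the test of GDNF called 0 of 11 ribosomal genes higher and 2 lower. It called 1 of 19 p53 genes higher and 8 lower, and 3 of 19 glycolysis genes higher and 0 lower. Over all genes the same test called 9.48% higher and 4.08% lower, so the share of p53 genes higher was below that over all genes. Of 11 ribosomal protein genes 5 were lower than whole gut with GDNF and 0 without, with medians of -0.847 and -0.172. Without the untreated well of gut 3 the second median was 0.116, so its sign turned. Rps19 scored 0.19, -0.22, -1.84 and -1.37 with GDNF, 1.49, 0.23, 1.25 and 0.88 without and 1.24 to 1.31 (median 1.3) in whole guts, a difference of -2.1 ± 0.29 (SE, adjusted p = 0.000102) with GDNF. The mean over the 11 genes was 0.00666, 0.140, -0.906 and -0.577 in treated wells and 1.08, -0.444, 0.863 and 0.682 in untreated wells, so that the untreated well of gut 3 stood apart here too. Of 19 p53 targets and apoptosis genes 4 were higher and 3 lower with GDNF, the share lower being near that over all genes. Without GDNF 11 were higher and 0 lower. The medians were 0.423 with and 1.58 without GDNF, and 1 gene was lower with GDNF when the well of gut 8 or 9 was left out. Cdkn1a, the cell cycle inhibitor p21, differed from gut by 0.86 ± 0.21 (SE, adjusted p = 0.00679) with and 1.85 ± 0.33 (SE, adjusted p = 0.00145) without GDNF, and Mdm2, which degrades p53, by 0.42 ± 0.34 (SE, adjusted p = 0.424) and 1.55 ± 0.36 (SE, adjusted p = 0.00712). Zmat3, another p53 target, was higher in both, by 2.05 ± 0.20 (SE, adjusted p = 7.59e-06) and 1.88 ± 0.36 (SE, adjusted p = 0.00204).

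Of 19 genes of glycolysis and hypoxia 1 was higher and 6 lower with GDNF and 0 and 13 without, with medians of -0.427 and -1.49. Without the treated well of gut 2 the first median was 0.0178, and without that of gut 3, 11 were lower. The hexokinase Hk1, the 1 higher, scored 0.24, 1.36, 1.11 and 1.21 with GDNF, -1.08, -0.87, -0.73 and -1.09 without and -1.65 to -1.5 (median -1.57) in whole guts. Of 23 immediate early genes 6 were higher and 3 lower with GDNF, and 7 and 2 without. Both shares lower were below those over all genes. Fos differed by 2.56 ± 0.51 (SE, adjusted p = 0.00161), and Jun by 0.35 ± 0.25 (SE, adjusted p = 0.358) with GDNF and 2.2 ± 0.35 (SE, adjusted p = 0.000538) without, while the endothelial and epithelial factors Klf2 and Klf4 were lower by -2.13 ± 0.25 (SE, adjusted p = 2.71e-05) and -1.43 ± 0.31 (SE, adjusted p = 0.00282). Of 20 genes of endoplasmic reticulum stress and the amino acid response 7 were higher and 1 lower, 4 higher without the well of gut 9, and 6 and 1 without GDNF, or 0 lower without the untreated well of gut 3. Chac1, a glutathione-degrading enzyme of that response, differed by 2.64 ± 0.27 (SE, adjusted p = 8.85e-06) with wells at -0.25, 1.25, 1.23 and 1.29, of which gut 2 stood low, and asparagine synthetase, Asns, by 1.96 ± 0.20 (SE, adjusted p = 1.16e-05), also with the well of gut 2 lowest at 0.17.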

How the data were processed

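RNA of cultured ENCCs and of whole gut was hybridised to Affymetrix mouse arrays with 45101 probe sets. RMA is named in the submitters' processing notes, without a version. The deposited score of a probe set is a normal quantile: in each of the 33 arrays the sorted values equal normal quantiles to within 5.0e-06, from -4.084 to 4.084. Each probe set also appears centred, which was read in the values since no label says so, on the 7 ENCC RNAs hybridised in both batches, since the SD over probe sets of their mean was 0.0585 in batch 1 and 0.117 in batch 2 where 0.378 is expected of independent arrays. The sources used here name no program for these steps. A filter on brightness was not possible, and a shift of all genes is not kept. Log2 values had been assumed when tests were planned, and the same limma fits were run on the scores.

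Probe sets were named from GEO's platform annotation: 34958 had 1 symbol, 932 several and 9211 none. The gene's score was the mean of its probe sets, giving 18193 genes from 34945 probe sets. limma 3.58.1 in R 4.3.3 (statmod 1.5.0) was fitted over all genes with 1 weight per group, 0.112 for treated wells and 2.99 for whole guts, with Benjamini-Hochberg adjustment of the p-values over all genes. GDNF was tested in pairs of wells of 1 gut, since the labels say that both wells hold cells of that gut. Gut numbers of ENCCs and of whole guts come from different animals and pair nothing. The script was tested on simulated data.

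Genes named are the 10 largest called differences each way without overlap between groups and with all probe sets of 1 sign, the 8 largest each way with GDNF only and the same side in all 4 guts, Elavl3, Vip, Ret and Gfra1, and in each of 36 gene lists its lead genes and the 2 largest called each way. Clone and predicted names were left out. The comparison, lists, motifs and markers were chosen with earlier results of these data known. Promoters are RefSeq's, matched by symbol, for 14452 genes.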

Additional observations from a re-analysis of the deposited data

Results flagged for a closer look

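The genes that differed from whole gut with GDNF only, 800 higher and 200 lower, were set apart because the effect of GDNF itself was called in 5 other guts.

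Single arrays stood far from the rest of their group by Dixon's criterion, which chance meets in about 1 in 20 groups. Over all genes this happened for 5.29% among the 4 treated wells and for 10.7% among the 8 whole guts. Among the treated wells, gut 2 was low for Asns (0.17, others 0.95 to 1.09), Chac1 (-0.25, others 1.23 to 1.29) and Klf2 (-1.54, others -0.53 to -0.32). The well of gut 3 was low for Sytl2 (-3.19, others -0.19 to 0.26). The well of gut 8 was low for Ramp2 (-2.36, others 0.15 to 0.26) and Ctss (-0.34, others at -0.17) and high for Kcnq3 (0.97, others -0.50 to -0.34). The well of gut 9 was low for Chrna3 (-0.09, others 0.57 to 0.65) and high for Csf1r (0.35, others -0.39 to -0.34), Fcgrt (0.46, others -1.02 to -0.83) and Alpi (1.47, others -1.01 to -0.73).

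Whole gut 4 was the far array for most genes of this kind among whole guts. It was low for Guca2b (2.46, others 3.44 to 3.92), Apoc3 (2.92, others 3.22 to 3.32), Alpi (2.57), Abcc2 (2.81), Cdhr2 (2.58), Cck (0.76), Slc6a4 (1.19), Fcgrt (1.45), P4hb (1.79), Plin3 (1.39), Net1 (1.37), Cdkn1a (-1.30), Ier3 (-1.72) and Vip (-2.02). It was high for Cdh1 (3.04), Ctss (3.49), Smad6 (2.81), Mcm2 (2.32), Gli2 (1.93), Fabp7 (-0.81), Gdnf (-0.21), Hoxb4 (-1.12), Jun (-0.95), Nefl (-0.90) and Tgfb2 (-1.38). Whole gut 2 was high for Aldh1l2 (-2.84), whole gut 6 high for Itga6 (-1.09) and whole gut 3 low for Npy (-2.40). The calls of these genes against treated wells, where there was one, were kept without whole gut 4.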

How the results depend on the processing

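With 1 spread for both groups, 4558 genes were higher and 4723 lower in treated wells and 3598 and 4154 in untreated wells. Tested singly, 5305 probe sets were higher and 4960 lower. Reproducible probe sets alone, a smaller number of genes, gave 1697 lower in treated and 1382 lower in untreated wells. Without 1 treated well 2367 to 2594 genes were higher and 2267 to 2384 lower, and without 1 whole gut 2908 to 2927 and 2856 to 2965. Without 1 untreated well 964 to 2060 were higher and 1315 to 2266 lower in untreated wells. With the gut as a replicate block in a fit of 16 arrays, 2917 were higher and 2833 lower in treated wells.

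The effect of GDNF in 5 guts gave 1094 genes higher and 301 lower with no replicate block, 3321 and 2404 over all 9 guts, and 0 to 1483 and 0 to 742 without 1 gut. Without gut 4, 5, 6 or 7 no gene was called by limma, with 4473 to 4990 at an unadjusted p under 0.05. In guts 2, 3, 8 and 9 alone, the replicate block called 929 higher and 311 lower against 0 in pairs. Genes with GDNF only numbered 519 higher with the replicate block, 437 of them among the 800, and 152 lower, 55 of them among the 200. They numbered 1295 and 716 over all 9 guts, and 331 lower with reproducible probe sets alone. Without 1 well or gut they numbered 0 to 961 and 0 to 227. The cause of these shifts was not tested.

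Of 155 named genes called against whole gut, 148 kept the call under every alternative in which they had a value. Some named genes had no reproducible probe set and so no value under that alternative. Probe sets tested singly were not counted here. The genes that lost the call were Ano1, Cck, Coro1a, Dusp6, Erbb3, Gfap and Sox11. Chat, not called, was -0.15 without the treated well of gut 3, -0.03 without that of gut 8 and 0.22 without that of gut 9.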
